A study of Homo sapiens with 6 samples.

Results

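The tripartite motif (TRIM) proteins are a large family built from a RING domain, 1 or 2 B-box zinc fingers and a coiled coil, and most act as E3 ubiquitin ligases, which choose the proteins that receive ubiquitin. The part after the coiled coil differs between members and sets what they bind: a SPRY domain in the largest group, NHL repeats, a PHD finger with a bromodomain, or a COS box that holds microtubules. Many SPRY members are induced by interferon and act in antiviral and inflammatory signalling, while others work in neurons, muscle, chromatin or germ cells. The members described here are the 68 genes, of 21872 in the table, whose symbol is Trim followed by a number and at most 1 letter. Not all of them carry the RING domain: Trim14, Trim16, Trim29, Trim44 and Trim66 lack it. TRIM proteins with other names, among them Pml, Mid1 and Mid2, are given separately.

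The 3 HuR knockout libraries and the 3 control libraries were made from MOC2, a line of mouse oral squamous carcinoma cells, and are described as biological triplicates. HuR is encoded by Elavl1; it holds AU-rich stretches of mRNAs and is known to keep many of them stable. Both groups had been treated with lentiviral particles carrying Crispr/Cas9, directed at HuR or control, at an MOI of 25 for 18 h and then kept for 72 h more. The genotype label of the first group is Knockout, while its titles read HUR KD. A single clone was isolated for the loss of HuR. Separate clones are not mentioned, so p-values reflect the spread between these 6 libraries, which may be technical. The sample labels name human as the species, but both the symbols and the title of the series point to mouse.

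The libraries held 16158516 to 21294330 counts once the 1704 rows with 0 in control library 1, in which every value was a multiple of 11, had been divided by 11; of the 68 members, 7 stood in such rows and none of the 7 was tested. Levels are given as CPM, the usual unit of counts scaled to a library's total, here TMM-scaled. They do not compare one gene with another because transcripts differ in length. A gene rose or fell where the adjusted p of edgeR's quasi-likelihood test over all genes was under 0.05. The knockout libraries held 116, 114 and 105 CPM of Elavl1 mRNA and the control libraries 107, 119.7 and 117 CPM (log2 -0.04, adjusted p = 0.82 by edgeR), so its level does not check the labels. The knockout libraries were not alike: library 3 correlated with libraries 1 and 2 at 0.924 and 0.931 (r over genes, not independent replicates), against 0.978 between libraries 1 and 2. Of 6 epithelial markers 5 fell, with a summed level of 5772 to 8257 CPM in knockout and 10560 to 12780 CPM in control libraries. Of 8 fibroblast markers 4 were tested, 3 rose (Col1a1, Col3a1 and Pdgfrb) and Pdgfra did not pass, with a summed level of 408 to 430 CPM in knockout and 3.73 to 8.43 CPM in control libraries. Of the other 4, Lum was at 0 throughout, and Col1a2, Postn and Dcn averaged 0.059, 0.153 and 0.469 CPM in knockout and 0, 0.0203 and 0.103 CPM in control libraries. In bulk libraries fewer cells of a type and less RNA per cell cannot be told apart, and the part of these shifts in the TRIM results was not tested.

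Of the 68 TRIM genes, 12 had no count in any library, 18 had too few counts to test and 38 were tested. Of these 38, 13 rose in HuR knockout cells (34.2%) and 2 fell (5.26%), together 15 or 39.5%, beside 35.7% of all 12293 genes tested, of which 20.3% rose and 15.4% fell. The share of members called was thus near that of all genes. Across all genes 57.6% did not overlap between the groups in CPM, and among the 38 members 20 did not (52.6%). The median log2 fold change of the tested members was 0.35 and that of all genes 0.03. A change of at least 2-fold was called for 10 of the 38 members, beside 2785 of all 12293 genes tested (22.7%). The filter on low counts admitted 33 members by their levels in both groups, and of those 11 were called (33.3%). The other 5, Trim9, Trim30a, Trim30d, Trim12a and Trim6, passed through the group in which they were higher, which favours a difference. Without control library 1, 2 or 3 the numbers that rose were 7, 5 and 6, and 2 fell each time, while the share of all genes called was 21.5%, 18.4% and 18.8%. Without knockout library 1, 4 members fell, with 35.2% of all genes called, and without knockout library 3, 5 fell, with 48.3% called.

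**Figure D1:**
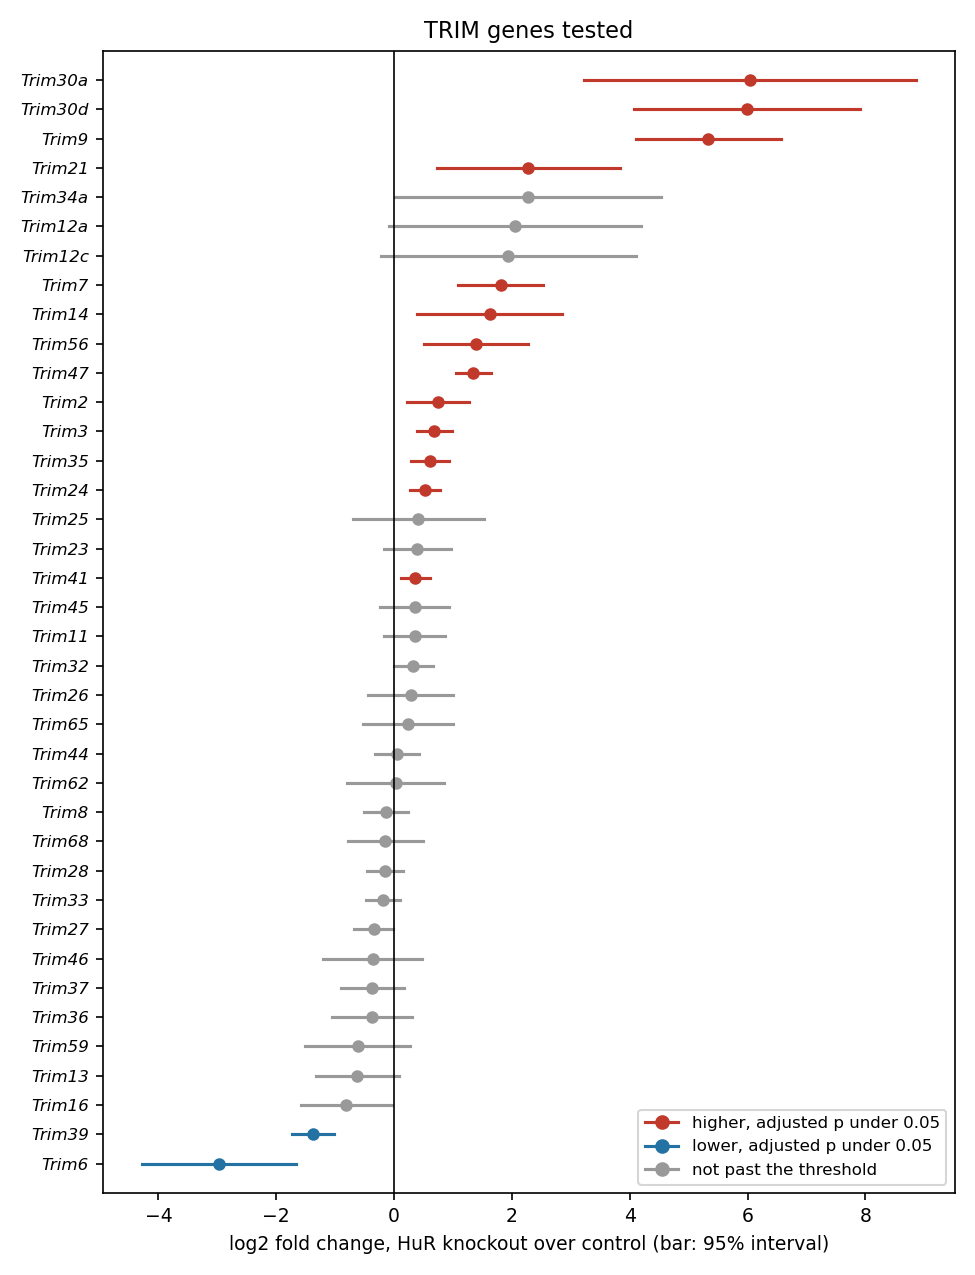
Log2 fold changes of HuR knockout over control for the 38 TRIM genes tested, with 95% intervals from edgeR's quasi-likelihood test on 3 libraries per group. Red marks the 13 that rose, blue the 2 that fell and grey the 23 that did not pass; the intervals of Trim34a, Trim12a and Trim12c are among the widest.

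The interferon-inducible TRIM genes held the 2 largest increases of the family, and 10 of the 11 tested were highest in knockout library 3. Of 16 such genes, 11 were tested: 5 rose (Trim30a, Trim30d, Trim21, Trim14 and Trim56), 1 fell (Trim6) and 5 did not pass, with a median log2 fold change of 1.94. The share called was 54.5%, beside 35.7% of all genes tested, whose median was 0.03. Trim30a and Trim30d passed the filter on low counts through the knockout group and Trim6 through the control group, which favours a difference. Trim30a is a mouse SPRY member known to restrain NF-kB signalling. Its level was 7.79, 6.86 and 52.4 CPM in HuR knockout libraries 1, 2 and 3, against 0.374, 0.0491 and 0.608 CPM in control libraries 1, 2 and 3. Every knockout library was above every control library, and library 3 stood far above the other two. Trim30a rose 65.7-fold (log2 6.04, SE 1.18, adjusted p = 0.00962 by edgeR). Its near copy Trim30d was at 11.7, 11.03 and 48.0 CPM in the knockout libraries and at 0.374, 0.246 and 0.486 CPM in control libraries. It rose 63.5-fold (log2 5.99, SE 0.80, adjusted p = 0.0025 by edgeR), again with no overlap and with library 3 highest. Without control library 3, Trim30a was 99.3-fold higher (adjusted p = 0.0377). Control libraries 1, 2 and 3 held 8, 1 and 10 counts of Trim30a and 8, 5 and 8 of Trim30d. The folds of both genes thus rest on few control counts. The Trim30 genes are close paralogues, as are Trim12a with Trim12c and Trim34a with Trim34b, so how the counting split reads between them is uncertain. Trim30b had no count in any library and Trim30c had 0, 1 and 3 counts in knockout libraries and 0 in control libraries.

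Trim21, the cytosolic receptor for antibody on incoming viruses, was at 3.60, 3.92 and 16.1 CPM in the knockout libraries, against 1.498, 1.82 and 1.52 CPM in control libraries. It rose 4.86-fold (adjusted p = 0.035 by edgeR). Trim56, an E3 ligase that promotes innate DNA sensing, was at 43.8, 53.8 and 117 CPM in the knockout libraries and at 29.3, 25.6 and 26.98 CPM in control libraries, a 2.61-fold rise (adjusted p = 0.0282 by edgeR). Trim14, a RING-less adaptor of the mitochondrial antiviral pathway, was at 6.27, 5.44 and 16.8 CPM in the knockout libraries, against 4.21, 2.26 and 2.73 CPM in control libraries. It rose 3.08-fold at the edge of the threshold (adjusted p = 0.0491 by edgeR). For these 3 genes no knockout library overlapped a control library. None of the 3 kept its call when a control library was left out: without control library 1, 2 or 3 the adjusted p was 0.112, 0.107 and 0.118 for Trim21, 0.0826, 0.107 and 0.0993 for Trim56, and 0.0796, 0.165 and 0.154 for Trim14. Trim14 also lost it with the values as deposited, with RLE scaling and in limma-voom (adjusted p = 0.0544, 0.0527 and 0.0811), and Trim21 in limma-voom (adjusted p = 0.0855). With the replicate number as a block, Trim14 and Trim21 did not pass either (adjusted p = 0.0722 and 0.0612 by edgeR).

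**Figure D2:**
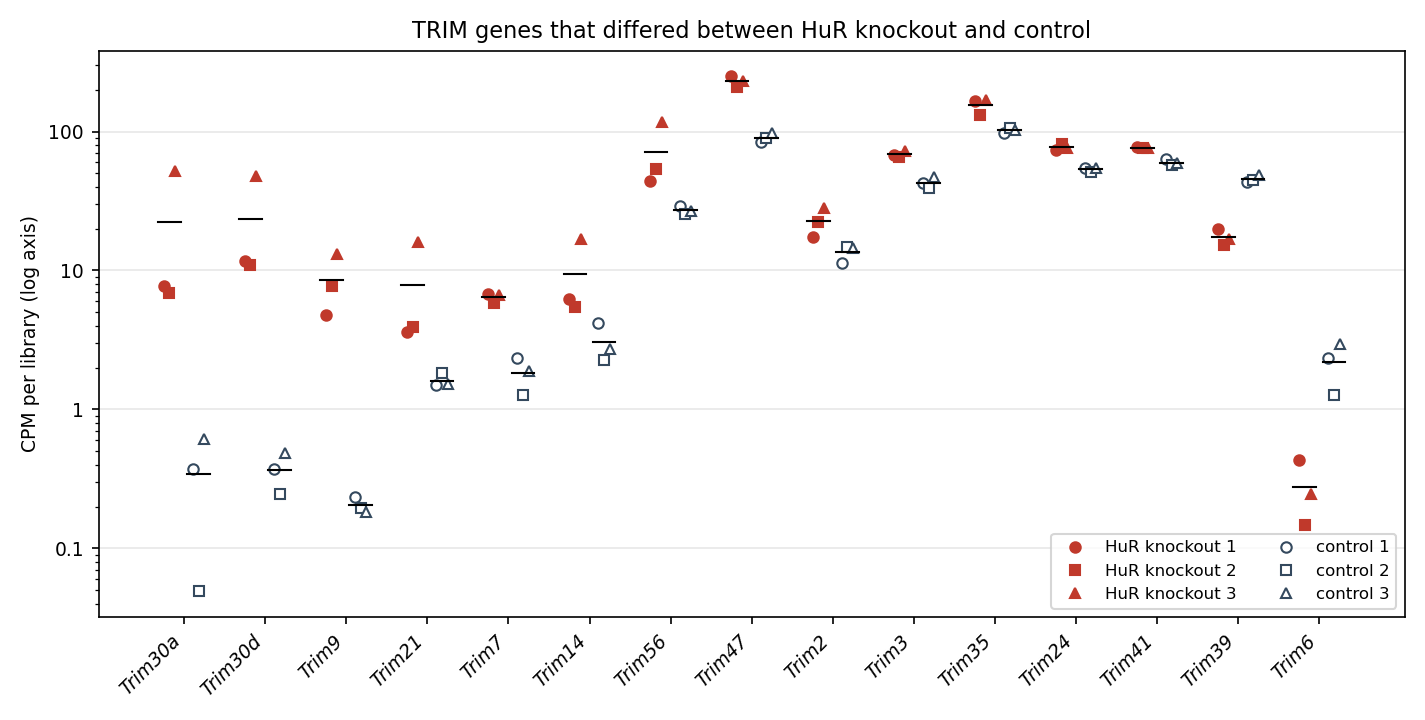
CPM per library, on a log axis, of the 15 TRIM genes that differed between HuR knockout (filled red, left of each pair) and control (open, right), ordered by log2 fold change; the symbol gives the library number and the black line the mean of 3 libraries. The groups do not overlap for any of the 15. These were picked by the test on the same libraries, so the lack of overlap adds no support. Among all genes tested, 57.6% did not overlap. Knockout library 3 stands apart for Trim30a, Trim30d, Trim21, Trim14 and Trim56.

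Other interferon-inducible members were high in knockout library 3 and did not pass the test. Trim34a was at 1.74, 1.72 and 15.5 CPM in the knockout libraries and at 1.64, 0.982 and 1.28 CPM in control libraries (log2 2.27, adjusted p = 0.107 by edgeR, 0.0289 in DESeq2). Trim12a was at 1.47, 1.03 and 8.21 CPM in the knockout libraries, against 1.31, 0.442 and 0.790 CPM in control libraries (log2 2.05, adjusted p = 0.12). Trim12c, its neighbour in the mouse Trim5 gene cluster, was at 2.62, 1.52 and 15.7 CPM in the knockout libraries and at 2.25, 1.08 and 1.82 CPM in control libraries (log2 1.94, adjusted p = 0.14). For all 3, knockout libraries 1 and 2 lay in or just above the control range. Trim5 had 3, 6 and 23 counts in knockout libraries and 1, 0 and 2 in control libraries, a ratio of 11.3 with an exact 95% interval of 3.52 to 57.5 that covers counting error only. It had too few counts for edgeR's filter and passed in DESeq2 (adjusted p = 0.0453) but not in edgeR with no filter on low counts (adjusted p = 0.0757). Trim26, which acts on interferon-beta induction, was at 60.2, 37.0 and 88.9 CPM in the knockout libraries, against 55.4, 46.2 and 51.5 CPM in control libraries (adjusted p = 0.504). Trim38 had no count in any library.

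Trim25, the ligase known for ubiquitin-dependent activation of RIG-I and itself an RNA-binding protein, split within the knockout group. The knockout libraries held 69.2, 76.4 and 232 CPM of it, and the control libraries 93.7, 93.3 and 96.0 CPM. Libraries 1 and 2 lay below all control libraries and library 3 above them. Over all 6 libraries it did not pass (log2 0.41, 95% interval -0.69 to 1.52, adjusted p = 0.516 by edgeR). Without knockout library 3 it was lower in knockout, at log2 -0.37 (adjusted p = 0.0119 by edgeR).

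Leaving out knockout library 3 lowered the increases of the interferon-inducible members, and the 5 that rose still passed, in a fit that called 48.3% of all genes tested. Trim30a was then 21.7-fold higher (adjusted p = 0.000618 by edgeR) and Trim30d 30.8-fold (adjusted p = 1.73e-05). Trim21 was 2.33-fold, Trim14 1.90-fold and Trim56 1.79-fold higher (adjusted p = 0.0126, 0.0414 and 0.00112). Trim34a, Trim12a and Trim12c were only 1.33-fold, 1.46-fold and 1.20-fold higher (adjusted p = 0.418, 0.424 and 0.648). Over the 11 tested members of the list, the median log2 ratio to the control mean was 0.68, 0.40 and 3.20 in knockout libraries 1, 2 and 3. Over the 27 other tested members it was 0.04, 0.06 and 0.23. Knockout library 3 was the highest of the 6 libraries for 10 of the 11, for 20 of the 38 tested members, and for 33.7% of all genes tested. Library 3 is 1 library, so its difference from the other 2 knockout libraries has no replicate check.

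**Figure D3:**
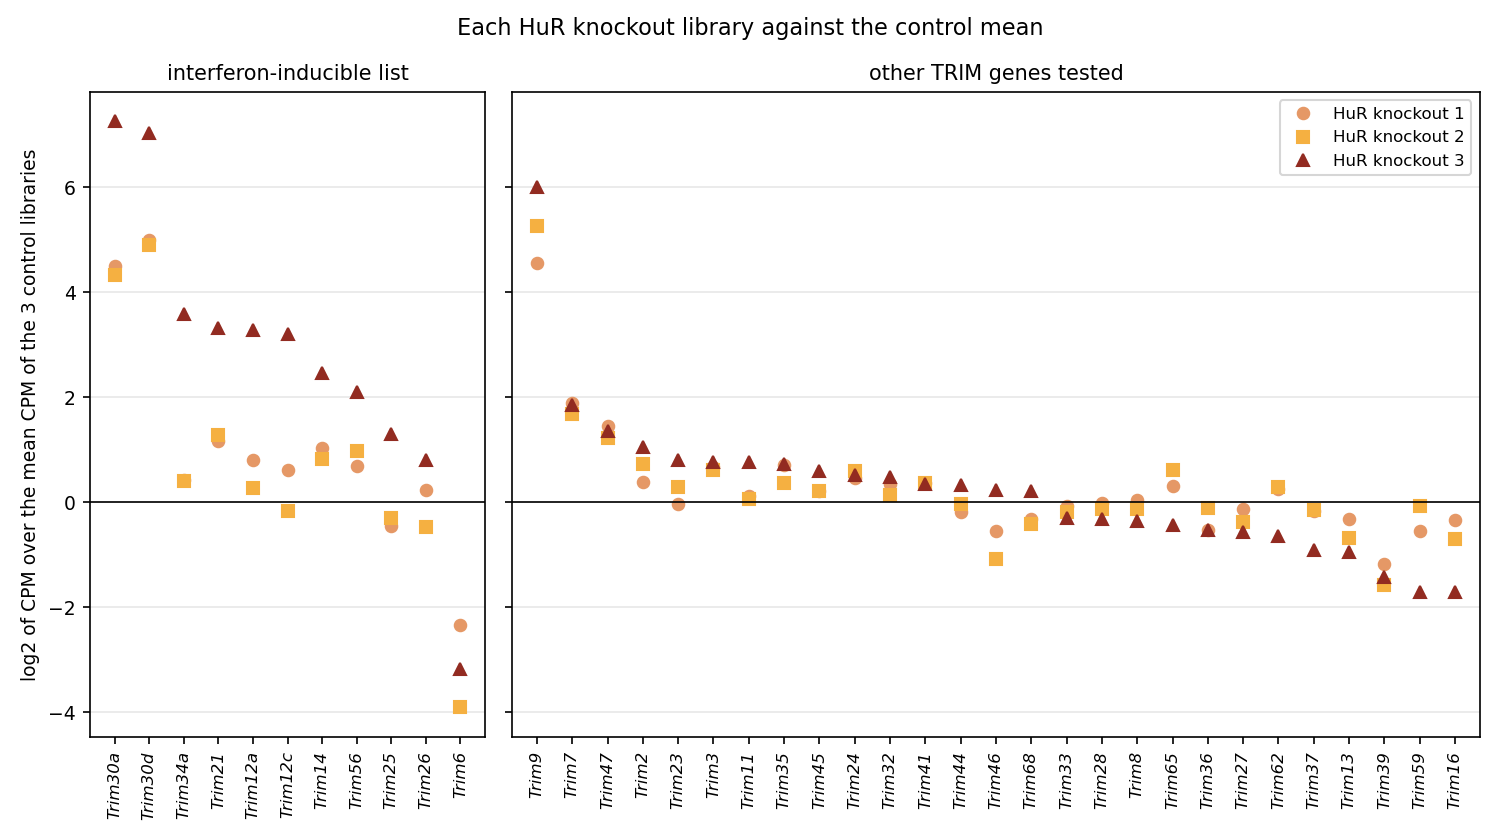
Log2 ratio of each HuR knockout library to the mean of the 3 control libraries, for the 11 interferon-inducible TRIM genes tested (left) and the 27 others (right), ordered by knockout library 3. Library 3 (dark triangles) lies above libraries 1 and 2 for 10 of the 11 genes on the left, while Trim6 is below 0 in all 3 libraries.

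**Figure D4:**
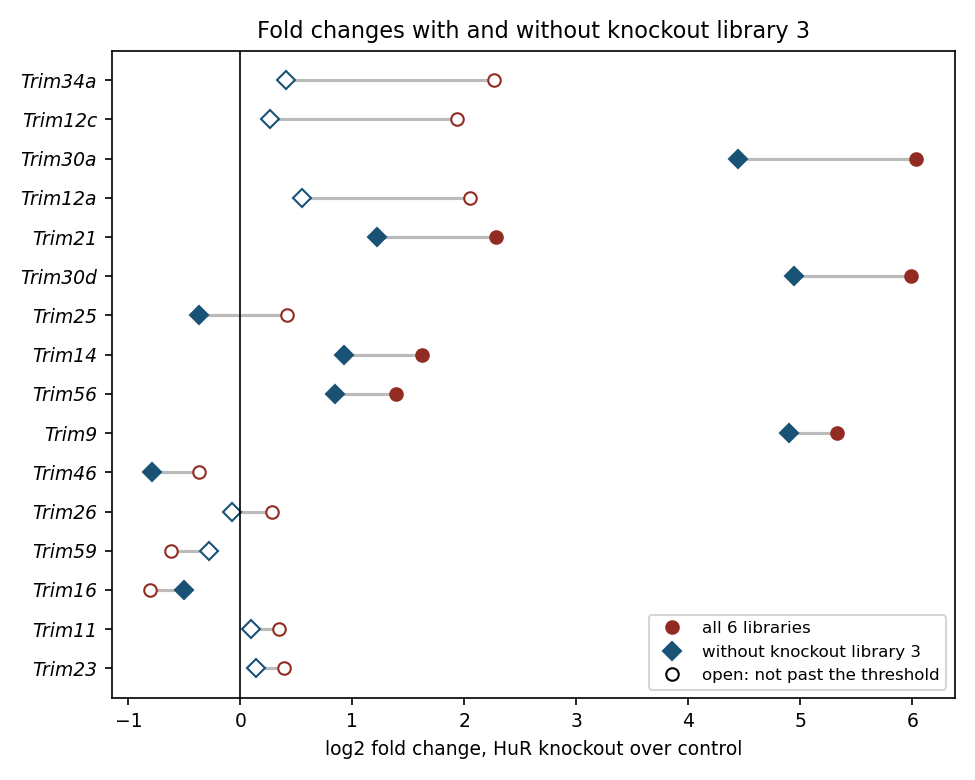
Log2 fold changes of HuR knockout over control with all 6 libraries (circles) and without knockout library 3 (diamonds), for the 16 tested TRIM genes that moved most; filled symbols passed the threshold. Trim34a, Trim12c, Trim12a and Trim30a moved by 1.86, 1.67, 1.503 and 1.60, and Trim25 and Trim26 changed sign.

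Leukocytes express many of these TRIM genes, so their markers were read beside them. Of 10 leukocyte markers, 4 were at 0 in all 6 libraries, Adgre1, Itgam and Tyrobp among them, and Ptprc, which encodes CD45, was at 0 in all knockout libraries. The summed level was 1.86 to 37.2 CPM in knockout and 2.46 to 6.51 CPM in control libraries. Cd68, a lysosomal protein, made up nearly all of the highest sum, with 36.9 CPM in knockout library 3 (adjusted p = 0.248 by edgeR between the groups). The part of these cells in the TRIM results was not tested.

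Trim6 lies in the same mouse gene cluster as Trim5, Trim12a and Trim30a, and it fell. This SPRY ligase, known from human cells to make unanchored ubiquitin chains that activate the kinase IKK-epsilon, was at 0.436, 0.147 and 0.245 CPM in the knockout libraries and at 2.34, 1.28 and 2.98 CPM in control libraries. All knockout libraries were below all control libraries. It fell 7.83-fold (log2 -2.97, SE 0.55, adjusted p = 0.00767 by edgeR), with 15 counts over the knockout group and 125 over the control group. Ikbke, which encodes IKK-epsilon, was at 11.1, 8.97 and 12.3 CPM in the knockout libraries, against 28.6, 20.4 and 26.4 CPM in control libraries, and fell 2.34-fold (adjusted p = 0.00511 by edgeR).

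Genes of the RIG-I pathway and of interferon signalling were read beside these members. Of the 10 RIG-I pathway genes with counts, 3 rose, 1 fell and 6 did not pass, with a median log2 fold change of 0.50. The share called was 40%, near the 35.7% of all genes tested. The sensors Dhx58 and Ifih1 and the transcription factor Irf7 rose 33.4-fold, 3.997-fold and 50.2-fold (adjusted p = 0.016, 0.0459 and 0.0321 by edgeR), and Ikbke fell as given above. Ddx58, which encodes RIG-I itself, was at 23.5, 16.1 and 108 CPM in the knockout libraries, against 24.4, 18.1 and 19.7 CPM in control libraries, and did not pass (adjusted p = 0.208 by edgeR; log2 -0.07 without knockout library 3). Without knockout library 3 Dhx58, Ifih1 and Irf7 rose 8.15-fold, 1.93-fold and 6.12-fold (adjusted p = 0.00026, 0.007 and 0.00729), and none of them passed without control library 1, 2 or 3. The adjusted p was then 0.06 to 0.0713 for Dhx58, 0.104 to 0.154 for Ifih1 and 0.0774 to 0.118 for Irf7, whose fold was 97.0 without control library 1. In limma-voom the adjusted p was 0.0918 for Dhx58, 0.106 for Ifih1 and 0.185 for Irf7, and with the values as deposited it was 0.0516 for Ifih1. With the replicate number as a block the adjusted p by edgeR was 0.066 for Ifih1 and 0.0814 for Irf7. With no filter on low counts it was 0.0536 for Ifih1. Of 11 interferon signalling genes 3 rose and 8 did not pass, with a median of 0.87. The share called was 27.3%, below the 35.7% of all genes tested. The receptor-bound kinase Tyk2 rose 2.06-fold and the receptor chain Ifnar1 1.94-fold (adjusted p = 0.00211 and 0.00443 by edgeR), with all 3 knockout libraries above the controls. Irf9, the DNA-binding part of the interferon-stimulated gene factor, was at 15.9, 14.99 and 108 CPM in the knockout libraries, against 7.30, 5.75 and 6.20 CPM in control libraries (adjusted p = 0.0375). It rose 7.21-fold, and 2.41-fold without knockout library 3 (adjusted p = 0.000755), and lost its call without control library 1, 2 or 3 (adjusted p = 0.107, 0.128 and 0.122) and in limma-voom (adjusted p = 0.125). With the replicate number as a block, Irf9 did not pass either (adjusted p = 0.0706 by edgeR).

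Among the COS box members with a Trim symbol, which bind microtubules, Trim9 rose strongly, and Trim36 and Trim46 did not pass. Trim42, Trim54, Trim55, Trim63 and Trim67 were not tested. Trim9 is a ligase known from neurons, where it acts in netrin signalling and axon branching. It was at 4.795, 7.79 and 13.1 CPM in the knockout libraries, against 0.234, 0.197 and 0.182 CPM in control libraries, with 88, 159 and 213 counts against 5, 4 and 3. The control libraries lay close together near 0 and every knockout library was above them. Trim9 rose 40.3-fold (log2 5.33, SE 0.51, adjusted p = 0.000857 by edgeR). Trim46, which organises microtubules at the axon's start, was at 10.7, 7.40 and 18.3 CPM in the knockout libraries and at 18.9, 13.5 and 14.5 CPM in control libraries (adjusted p = 0.447). Without knockout library 3 it was lower (log2 -0.79, adjusted p = 0.0201 by edgeR). Trim36 had a log2 fold change of -0.37 (adjusted p = 0.341). Trim67, a close relative of Trim9, had 1, 3 and 7 counts in knockout libraries and 1, 0 and 1 in control libraries, too few to test.

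Of the 4 NHL members, 3 were tested and 2 rose (66.7%), while 20.3% of all genes tested rose. Trim32 and Trim71 did not reach a call. Trim3, a brain-enriched ligase that acts at synapses, was at 68.1, 65.5 and 73.0 CPM in the knockout libraries, against 42.7, 39.2 and 47.0 CPM in control libraries, and rose 1.60-fold (adjusted p = 0.00719 by edgeR). Trim2, which ubiquitinates neurofilament light chain, was at 17.6, 22.5 and 28.0 CPM in the knockout libraries and at 11.3, 14.6 and 14.6 CPM in control libraries, and rose 1.68-fold (adjusted p = 0.0392 by edgeR). Neither gene had overlapping groups. Trim32, mutated in a human limb-girdle muscular dystrophy, was at 37.3, 32.2 and 40.6 CPM in the knockout libraries, against 29.3, 30.5 and 28.0 CPM in control libraries, without overlap but short of the threshold (adjusted p = 0.108). Trim2 did not pass without control library 1, 2 or 3 (adjusted p = 0.132, 0.112 and 0.11) or knockout library 2 (adjusted p = 0.083), or with no filter on low counts (adjusted p = 0.0505), nor did Trim3 without control library 2 (adjusted p = 0.0513).

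Trim71, the mouse counterpart of worm lin-41 and a target of let-7 microRNAs in embryonic and stem cells, stood in a row that had been divided by 11. It then had 13, 9 and 6 counts in knockout libraries and 0, 1 and 0 in control libraries, at most 0.708 CPM, and was not tested. All 3 knockout libraries were above the controls, by a ratio of 29.6 (exact 95% interval 4.89 to 1210, counting error only). As deposited the counts were 143, 99 and 66 against 0, 11 and 0, and Trim71 then passed the test (log2 4.86, adjusted p = 0.0231 by edgeR), as it did with no filter on low counts (adjusted p = 0.0152) and in DESeq2 (adjusted p = 0.00703).

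The chromatin members of the TIF1 group carry a PHD finger and a bromodomain. Trim24, a coregulator of nuclear receptors, was at 74.0, 80.8 and 76.7 CPM in the knockout libraries and at 54.5, 51.4 and 54.4 CPM in control libraries. The libraries of each group lay close together, and Trim24 rose 1.44-fold (log2 0.53, SE 0.11, adjusted p = 0.0101 by edgeR; 0.0729 and 0.0589 without control library 2 or 3). Trim28, or KAP1, the corepressor that KRAB zinc finger proteins bring to silenced DNA, was at 503, 463 and 409 CPM in the knockout libraries, against 508, 528 and 488 CPM in control libraries. It did not pass (log2 -0.15, 95% interval -0.46 to 0.16, adjusted p = 0.402). Trim33, which controls SMAD4, was at 68.3, 63.1 and 58.6 CPM in the knockout libraries and at 68.2, 69.0 and 78.2 CPM in control libraries (adjusted p = 0.283). Of 14 partners of Trim28 in silencing, all tested, none passed edgeR's test, DESeq2 or limma-voom, and 1 had an unadjusted p under 0.05. Among all genes tested, 35.7% passed edgeR's test. The median log2 fold change of the 14 partners was -0.16. The smallest p was that of the deacetylase Hdac2 (log2 -0.50, adjusted p = 0.0907), which passed without knockout library 3 (log2 -0.31, adjusted p = 0.0242).

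Among SPRY members without a COS box and outside the interferon-inducible list, 4 rose and 1 fell. Trim9, which carries both a COS box and a SPRY domain, is given above. Of all 19 tested members with SPRY and no COS box, interferon-inducible ones included, 47.4% were called, beside 35.7% of all genes tested. Trim47, a RING ligase, was at 249, 211 and 231 CPM in the knockout libraries, against 84.7, 89.5 and 97.3 CPM in control libraries. The 3 knockout libraries lay close together, library 3 included, and Trim47 rose 2.54-fold (log2 1.35, SE 0.13, adjusted p = 0.000758 by edgeR). Trim7, known to bind glycogenin, was at 6.81, 5.88 and 6.61 CPM in the knockout libraries and at 2.34, 1.28 and 1.88 CPM in control libraries, and rose 3.50-fold (adjusted p = 0.00536 by edgeR). Neither had overlapping groups, and both passed in every alternative tried. Trim35 was at 167, 132 and 170 CPM in the knockout libraries, against 97.7, 105 and 103 CPM in control libraries, a 1.53-fold rise (adjusted p = 0.0152 by edgeR; 0.0697, 0.0717 and 0.0749 without control library 1, 2 or 3). Trim41 was at 76.9, 76.8 and 76.1 CPM in the knockout libraries and at 63.1, 57.4 and 58.9 CPM in control libraries. Its rise was 1.28-fold (adjusted p = 0.0366 by edgeR), the smallest of the 15 changes called, and it was lost when any 1 library other than knockout library 3 was left out (adjusted p = 0.0729 to 0.191) and with no filter on low counts (adjusted p = 0.0772). With the replicate number as a block, Trim41 did not pass either (adjusted p = 0.0908 by edgeR).

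Trim39, a ligase that acts on apoptosis and the cell cycle, was the SPRY member that fell outside that list. It was at 20.1, 15.3 and 16.9 CPM in the knockout libraries, against 43.2, 44.5 and 48.4 CPM in control libraries. The 2 groups lay far apart, and Trim39 fell 2.60-fold (log2 -1.38, SE 0.15, adjusted p = 0.00124 by edgeR). Trim27, also known as Ret finger protein, was at 107, 90.8 and 79.6 CPM in the knockout libraries and at 121, 118 and 113 CPM in control libraries, lower in each knockout library but short of the threshold (log2 -0.34, adjusted p = 0.0993; 0.0442 without knockout library 1). Trim11, Trim62, Trim65 and Trim68 had log2 fold changes between -0.15 and 0.35 and adjusted p between 0.253 and 0.962.

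Trim16 and Trim59 were lowest in knockout library 3, as were other members. That library was the lowest of all 6 libraries for 10 of the 38 tested members and for 31.9% of all genes tested. Trim16, a RING-less member that marks damaged membranes for autophagy, was at 63.9, 50.1 and 24.6 CPM in the knockout libraries, against 80.4, 82.1 and 80.2 CPM in control libraries. All knockout libraries were below the controls, but they differed among themselves and the test did not pass (log2 -0.81, 95% interval -1.58 to -0.04, adjusted p = 0.096 by edgeR). It passed in DESeq2 (adjusted p = 0.0447), without knockout library 1 (log2 -1.11, adjusted p = 0.039) and without knockout library 3 (log2 -0.50, adjusted p = 0.00909). Trim59, anchored in membranes, was at 54.4, 75.9 and 24.4 CPM in the knockout libraries and at 74.3, 82.9 and 80.5 CPM in control libraries (adjusted p = 0.239). Trim13, a ligase of the endoplasmic reticulum, was at 3.32, 2.60 and 2.14 CPM in the knockout libraries, against 4.82, 4.22 and 3.40 CPM in control libraries (log2 -0.63, adjusted p = 0.143).

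Several well-counted members showed no difference that passed the test. Trim37, the MATH domain ligase mutated in human Mulibrey nanism, was at 100.8, 101.6 and 59.8 CPM in the knockout libraries and at 100.8, 119 and 118 CPM in control libraries (log2 -0.37, adjusted p = 0.24). Trim8, which acts on cytokine signalling, was at 148, 133 and 113 CPM in the knockout libraries, against 162, 127 and 143 CPM in control libraries (log2 -0.14, 95% interval -0.51 to 0.23, adjusted p = 0.515). The RING-less Trim44 was at 66.8, 74.6 and 95.7 CPM in the knockout libraries and at 74.5, 76.4 and 77.7 CPM in control libraries (log2 0.05, 95% interval -0.32 to 0.42, adjusted p = 0.815). For these 3 genes the groups overlapped. Trim23 ends in an ARF domain and stood at log2 0.39 (adjusted p = 0.24). Trim45 carries a filamin repeat and stood at log2 0.35 (adjusted p = 0.301).

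The TRIM genes of striated muscle stayed near 0. Trim63, or MuRF1, had 0, 0 and 7 counts in knockout libraries after division by 11 and 0 in every control library. Trim55 had none in any library, Trim54 had at most 6 counts and at most 0.281 CPM, and Trim72, a membrane repair protein, had 0, 2 and 9 counts in knockout libraries and 5, 0 and 0 in control libraries. Of 10 striated muscle markers, Tnnt2 alone had enough counts to test, at 300.5, 114 and 47.2 CPM in the knockout libraries, against 343, 239 and 265 CPM in control libraries (adjusted p = 0.302 by edgeR). The markers summed to 53.0 to 301 CPM in knockout and 239 to 343 CPM in control libraries. Tnnt3, in a row divided by 11, had 12, 4 and 86 counts in knockout libraries, 5.27 CPM in library 3, and 0 in every control library. Actn2 was at 0 throughout.

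Of members with few counts elsewhere, Trim15 had 0 in all knockout libraries and 6, 1 and 5 counts in control libraries. Set against a floor of 3 counts over the group, it was 3.79-fold lower in knockout, with counting error in the control counts left out. Trim15 did not pass in edgeR with no filter on low counts or in DESeq2 (adjusted p = 0.0642 and 0.0966). Trim40, known from the gut, had 0, 0 and 1 counts in knockout libraries and 12, 4 and 3 in control libraries, a ratio of 18.0 (exact 95% interval 2.86 to 747). It had too few counts for the filter and was lower with no filter on low counts and in DESeq2 (adjusted p = 0.0484 and 0.0498). Trim17, linked to neuronal apoptosis, had 15 counts in knockout library 3 and 2 in control library 3 after division by 11, and 0 elsewhere. Trim29, a keratinocyte member, had 10, 5 and 9 counts in knockout libraries and 3, 1 and 3 in control libraries. Trim66, a RING-less TIF1 relative, had 8, 2 and 4 counts in knockout libraries and 11, 16 and 14 in control libraries. Trim10, Trim34b, Trim43a, Trim43c, Trim58 and Trim69 stayed under 0.33 CPM in every library. Besides Trim30b, Trim38 and Trim55, no count was seen in any library for Trim31, Trim42, Trim43b, Trim50, Trim52, Trim60, Trim61, Trim75 and Trim80. At these depths a count of 0 over a group allows up to 3 counts, so expression below that level was not detectable.

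TRIM relatives under other symbols moved in both directions. Of 8 such genes 5 were tested, 1 rose, 1 fell and 3 did not pass. The share called was 40%, near the 35.7% of all genes tested. Bspry, a B-box and SPRY protein of epithelia, was at 7.19, 1.27 and 2.39 CPM in the knockout libraries, against 84.6, 66.4 and 58.4 CPM in control libraries. It fell 19.3-fold (adjusted p = 0.00345 by edgeR), and 38.5-fold without knockout library 1. The epithelial markers given above fell in the same libraries, and their part in this difference was not tested. Mid2, a microtubule-bound relative of Trim9, was at 33.7, 28.2 and 41.5 CPM in the knockout libraries and at 20.9, 17.9 and 22.9 CPM in control libraries, and rose 1.67-fold (adjusted p = 0.0235 by edgeR; 0.0796, 0.112 and 0.0666 without control library 1, 2 or 3). Rnf135, a SPRY ligase of the RIG-I pathway, was at 7.57, 10.5 and 9.92 CPM in the knockout libraries, against 6.60, 5.35 and 6.08 CPM in control libraries, without overlap but short of the threshold (adjusted p = 0.0653). Mid1, mutated in human Opitz syndrome, was at 4.31, 5.59 and 5.15 CPM in the knockout libraries and at 3.28, 3.29 and 3.83 CPM in control libraries (adjusted p = 0.131). Pml, the scaffold of nuclear bodies, was at 50.3, 50.7 and 98.4 CPM in the knockout libraries, against 53.3, 43.1 and 44.0 CPM in control libraries (adjusted p = 0.213).

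ISG15 and the enzymes that pass it or ubiquitin to ligases were read as the step before the TRIM proteins. Of 16 such genes 15 were tested, 4 rose, 3 fell and 8 did not pass, with a median log2 fold change of -0.17. The share called was 46.7%, beside 35.7% of all genes tested. Those that rose included the ISG15 system: Isg15 itself rose 22.0-fold, its activating enzyme Uba7 8.75-fold and its conjugating enzyme Ube2l6 3.98-fold (adjusted p = 0.0216, 0.0238 and 0.0122 by edgeR). Isg15 was at 11.5, 8.87 and 91.6 CPM in the knockout libraries and at 2.90, 1.08 and 1.03 CPM in control libraries, highest in knockout library 3. Without that library Isg15 and Uba7 rose 5.99-fold and 3.96-fold (adjusted p = 0.00297 and 0.00772). Isg15 did not pass without control library 1, 2 or 3 (adjusted p = 0.054, 0.0886 and 0.0871; 34.8-fold without library 1) or in limma-voom (adjusted p = 0.0974), nor did Uba7 and Ube2l6 without control library 2 (0.095 and 0.0592) or 3 (0.0938 and 0.0561), and Uba7 in limma-voom had an adjusted p of 0.0548. Ube2e2, an E2 enzyme, was at 34.8, 32.6 and 38.7 CPM in the knockout libraries, against 19.7, 16.2 and 20.0 CPM in control libraries, a 1.90-fold rise (adjusted p = 0.00473 by edgeR). Ube2d1, a widely used E2 partner of RING ligases, was at 28.9, 27.4 and 28.7 CPM in the knockout libraries and at 42.8, 40.2 and 41.7 CPM in control libraries. It fell 1.47-fold (adjusted p = 0.0115 by edgeR; 0.0537 and 0.0536 without control library 1 or 3). Uba6 fell 1.64-fold and Ube2e1 1.51-fold (adjusted p = 0.0119 and 0.022 by edgeR). Uba6 lost its call without control library 2 or 3 (0.0553 and 0.0548), and Ube2e1 without any 1 control library (0.072, 0.0815 and 0.0598) or knockout library 2 (0.0657).

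Summed over all 68 genes, TRIM transcripts were at 2130, 1989 and 2327 CPM in the knockout libraries, against 1904, 1896 and 1911 CPM in control libraries. Every knockout library was above every control library, but this leans on Trim47. That gene was at 249, 211 and 231 CPM in knockout and 84.7, 89.5 and 97.3 CPM in control libraries. With Trim47 left out of the sum, knockout library 2 lay below the controls, so the separation is not a rise of the whole family. An exact permutation over 3 against 3 libraries cannot give a p below 0.1, and no test was made. The 16 interferon-inducible genes summed to 209, 199 and 611 CPM in knockout libraries and to 193, 173 and 187 CPM in control libraries. The other 52 summed to 1921, 1790 and 1716 CPM in knockout libraries and to 1711, 1723 and 1724 CPM in control libraries. Knockout library 3 thus held the highest sum of the interferon-inducible genes and the lowest knockout sum of the others.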

How the data were processed

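The authors deposited whole-number counts per gene symbol for 6 libraries; the submitters' processing notes name STAR 2.7.1a, featureCounts and hg38 but no role for them. What gene models, strand handling and filtering were used was not given in the sources used here. Gene symbols were murine while the reference tables at hand were human, so no sequence or coordinate is reported. Genes that overlap or share reads with near copies may be split in ways that could not be checked.

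The 1704 rows at 0 in control library 1 were divided by 11. edgeR 4.0.16 in R 4.3.3 was run on all rows (filterByExpr, minimum count 10, TMM, robust quasi-likelihood test of knockout against control, Benjamini-Hochberg adjustment over 12293 genes, threshold 0.05); the common biological coefficient of variation was 28%. Standard errors and 95% intervals came from the fold change and its F statistic. Ratios of low counts have exact 95% intervals. DESeq2 1.42.0 and limma 3.58.1 were alternatives. The procedure was run on simulated counts drawn from the control means. That simulation held no divergent knockout library, so it does not check the calls against that feature of these data. No 2 libraries of a group were duplicates (chi-square over genes). Named were all members called, the best counted and the most shifted of the others, and up to 4 genes of each context list; Pml, Ddx58, Isg15, Uba7 and Ube2e1 were added after their values were seen. Some genes of these lists are not reported here. The members and all lists were chosen with earlier results of these data known.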

Additional observations from a re-analysis of the deposited data

How the results depend on the processing

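Across 13 alternatives, 7 of the 15 members called kept their call in all of them (Trim30a, Trim30d, Trim39, Trim47, Trim6, Trim7 and Trim9), and 8 lost it in at least 1 (Trim14, Trim2, Trim21, Trim24, Trim3, Trim35, Trim41 and Trim56). Among the 7 kept, Trim9, Trim30a, Trim30d and Trim6 had passed the filter on low counts through the group in which they were higher. This favours a difference. Leaving out 1 library at a time gave 1166 to 3178 genes higher and 1130 to 2843 lower in knockout, and 5 to 13 TRIM members higher and 2 to 5 lower; fewer samples were then tested. DESeq2 called 16 members higher and 4 lower of 49 tested, with 39.9% of all genes called. With 1 library left out, the median log2 fold change of the members tested stayed between 0.215 and 0.418. Sign changes occurred among members that had not passed. In the same fits the log2 fold change ran from -0.371 to 0.705 for Trim25, from -0.071 to 0.548 for Trim26 and from -0.107 to 0.159 for Trim44, each lowest without knockout library 3. It ran from -0.012 to 0.477 for Trim65, lowest without knockout library 2, and from -0.128 to 0.266 for Trim62. Trim62 was also -0.006 with no filter on low counts, -0.003 in DESeq2, -0.014 in limma-voom and -0.015 with the replicate block; the cause was not tested. Same-numbered libraries deviated together at r = -0.0487, 0.256 and 0.0219. These values show no clear pairing by number and, with 3 libraries per group, cannot exclude it. The replicate block gave 10 members higher and 2 lower, and 3591 genes in all. With it, and with limma-voom, 3 interferon-inducible members rose. Low counts limit what can be said of the 30 members not tested.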
